A study of Homo sapiens with 2 samples.

Results

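The snoRNA host gene transcripts described here are 10 long noncoding RNAs that were chosen by name: GAS5, SNHG1, SNHG5, SNHG6, SNHG7, SNHG8, SNHG12, SNHG29, ZFAS1 and EPB41L4A-AS1. Gene identifiers of the count table were converted to symbols, and 33113 of its 33538 gene rows received one. SNHG7, SNHG8, SNHG12, ZFAS1 and EPB41L4A-AS1 were matched to a row, and these 5 are the measured host genes. No row was matched to GAS5, SNHG1, SNHG5, SNHG6 or SNHG29, and these 5 were not analysed here. Of the measured ones, SNHG7, SNHG8, ZFAS1 and EPB41L4A-AS1 had a mean of at least 0.1 UMI per cell in each flask, as did 5512 gene rows in all. A UMI is a barcode that marks 1 captured RNA molecule. SNHG12 stayed under this limit and is given by its counts.

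The cells were untreated SH-SY5Y (SY5Y), an established human neuroblastoma line. They grew in 2 flasks, SplitA and SplitB, which came from the same culture and were not synchronized. Each flask received its own hashtag antibody before the cells were pooled and sequenced as 1 mRNA library with its hashtag library. A cell was put in a flask where one hashtag had at least 3 times the counts of the other and the other stayed under a set ceiling. Cells with at least 1000 genes were kept, 899 of SplitA and 1195 of SplitB. Both flasks had the same treatment and shared every step after pooling, so there was no comparison of conditions and no test. Cells of a flask are not replicates, and intervals (95%) cover counting error only.

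Small nucleolar RNAs (snoRNAs) are short RNAs that guide chemical modification of ribosomal RNA in the nucleolus. Most are cut out of introns of host transcripts. C/D box snoRNAs guide methylation of the ribose, and H/ACA box snoRNAs guide pseudouridylation. In some host genes the spliced exons encode no long protein, and the transcript that remains is a noncoding RNA such as ZFAS1 or GAS5. Several such transcripts begin, like ribosomal protein mRNAs, with a terminal oligopyrimidine (TOP) tract, and many are removed by nonsense-mediated decay when ribosomes engage them. The 3′ end counts used here measure the polyadenylated host transcript. No row was matched to a snoRNA of the annotation, so the snoRNAs were not analysed here.

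The measured host genes lie on 5 chromosomes, and their annotated snoRNAs are of both classes. Positions are those of GENCODE release 44 in GRCh38. ZFAS1 lies at chr20:49278178-49299600 on the plus strand and holds SNORD12, SNORD12B and SNORD12C. SNHG8 lies at chr4:118278703-118285316 on the plus strand and holds SNORA24. EPB41L4A-AS1 lies at chr5:112160526-112164818 on the plus strand and holds SNORA13. SNHG7 lies at chr9:136721366-136728184 on the minus strand and holds SNORA17A and SNORA17B. SNHG12 lies at chr1:28578538-28583132 on the minus strand and holds SNORD99, SNORA61, SNORA44 and SNORA16A.

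One snoRNA of each of the 4 more abundant hosts is shown, since it is what defines the host. SNORD12C is intronic in all annotated transcripts of ZFAS1, at chr20:49278940-49279028. SNORA24 (chr4:118279190-118279320), SNORA17A (chr9:136726747-136726879) and SNORA13 (chr5:112161485-112161617) overlap an exon of at least 1 annotated transcript of their host. Sequences were read from hg38 on the strand of the host, 5′ to 3′. Capitals mark TGATGA (C box) and CTGA (D box) in SNORD12C. In the H/ACA snoRNAs they mark the first ANANNA (H box) near the middle and the ACA that stands 3 bases from the 3′ end.
SNORD12C: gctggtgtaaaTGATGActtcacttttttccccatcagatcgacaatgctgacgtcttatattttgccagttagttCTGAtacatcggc
SNORA24: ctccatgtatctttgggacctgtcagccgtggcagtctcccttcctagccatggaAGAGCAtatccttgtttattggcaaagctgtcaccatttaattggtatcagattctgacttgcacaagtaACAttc
SNORA17A: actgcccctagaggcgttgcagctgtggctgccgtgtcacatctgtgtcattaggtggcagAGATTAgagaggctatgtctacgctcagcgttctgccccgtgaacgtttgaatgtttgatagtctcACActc
SNORA13: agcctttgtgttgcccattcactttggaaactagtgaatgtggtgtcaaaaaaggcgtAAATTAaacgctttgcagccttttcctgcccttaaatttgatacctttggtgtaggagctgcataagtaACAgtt

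The first bases of the transcripts are shown because the host genes are compared below with ribosomal protein genes, whose mRNAs are TOP mRNAs. Each window holds 30 bases before and 30 bases from the RefSeq start (GRCh38.p14), on the transcribed strand. Capitals mark a stretch of at least 5 bases, each C or T, counted from the first C that lies within 10 bases of the start. C or T bases that come before this C are not marked, as in ZFAS1 and SNHG7. Such a stretch stood in the windows of ZFAS1, SNHG8, SNHG7 and SNHG12 and not in that of EPB41L4A-AS1. The marked stretch of ZFAS1 begins at the first transcribed base. Of all 35116 promoters, searched on the transcribed strand only, 33.5% held such a stretch, a share not limited to 1 promoter per gene. For counts with 1 promoter per gene, only the first one listed was taken. Of the 63 ribosomal protein promoters that were matched, 56 held such a stretch, as did 6 of the 9 host gene promoters. Those of EPB41L4A-AS1, GAS5 and SNHG1 held none, and any further annotated start of a gene was not counted here. An annotated start need not be the start used in SY5Y cells, and a stretch is a description of letters.
ZFAS1, chr20:49278612-49278671: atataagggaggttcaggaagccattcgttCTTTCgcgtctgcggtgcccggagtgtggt
SNHG8, chr4:118278732-118278791: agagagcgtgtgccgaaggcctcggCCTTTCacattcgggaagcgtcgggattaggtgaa
EPB41L4A-AS1, chr5:112160496-112160555: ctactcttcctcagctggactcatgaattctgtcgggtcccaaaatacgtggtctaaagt
SNHG7, chr9:136728155-136728214: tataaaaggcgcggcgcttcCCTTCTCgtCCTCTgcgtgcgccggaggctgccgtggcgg
SNHG12, chr1:28581844-28581903: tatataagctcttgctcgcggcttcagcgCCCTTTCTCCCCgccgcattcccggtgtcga

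The kept cells held 1948 to 27205 UMIs in SplitA (median 6063) and 1801 to 27006 in SplitB (median 6346). All 9 noradrenergic markers looked at had UMIs in both flasks, with PHOX2A at 685 and 665 CPM (UMIs per 1000000 UMIs) and TH at only 1.54 and 1.12 CPM. Of 10 markers of other cells, 7 were at 0 in both flasks, and KRT19, a keratin of simple epithelia, was the highest at 9.91 and 14.6 CPM. Scrublet called 11 doublets in SplitA and 7 in SplitB, which were kept. Cells that the hashtag rule put in neither flask were left out, and doublets within a flask cannot be seen by hashtags.

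The 5 measured host genes together held 5848 UMIs in SplitA, 999.2 CPM (974 to 1025), and 8006 in SplitB, 993 CPM (971 to 1014). They were thus 0.0999% and 0.0993% of all UMIs. A UMI of at least 1 of them was seen in 95.1% of SplitA cells and 95.6% of SplitB cells. ZFAS1 alone gave 48.6% and 48.0% of these UMIs and SNHG8 32.6% and 34.0%. Since the counts are of 3′ ends, 1 UMI per captured molecule, levels below are not divided by length and can differ between genes also through capture.

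ZFAS1, the host of the SNORD12 snoRNAs, was the highest of the 5. It held 2843 UMIs in SplitA, 486 CPM (468 to 504), and 3845 in SplitB, 477 CPM (462 to 492). It ranked at place 229 and 236 among all gene rows. SNHG8, the host of SNORA24, came next with 326 CPM in SplitA (312 to 341) and 337 CPM in SplitB (325 to 350.2). The ratio of ZFAS1 to SNHG8 was 1.49 (1.41 to 1.58) and 1.41 (1.35 to 1.48), so that the order of these neighbours was the same in both flasks and outside counting error. EPB41L4A-AS1 had 100.5 CPM (92.5 to 109) and 93.0 CPM (86.4 to 99.9). SNHG7 had 81.3 CPM (74.2 to 89.0) and 77.0 CPM (71.0 to 83.3). These neighbours lay close together, at a ratio of 1.24 (1.09 to 1.40) in SplitA and 1.21 (1.08 to 1.35) in SplitB. SNHG12 was far below the others, with 33 UMIs in SplitA, 5.64 CPM (3.88 to 7.92), and 69 in SplitB, 8.55 CPM (6.66 to 10.8).

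The share of cells with a UMI had the same order as the levels. ZFAS1 was seen in 87.9% of SplitA cells (85.6% to 89.9%) and 88.2% of SplitB cells (86.2% to 90.0%). SNHG8 was seen in 78.4% (75.6% to 81.1%) and 79.2% (76.7% to 81.4%). EPB41L4A-AS1 and SNHG7 were each seen in under 50% of the cells, at 43.6% and 43.3% for EPB41L4A-AS1 and 38.4% and 39.2% for SNHG7. SNHG12 was seen in 3.23% (2.17% to 4.60%) and 5.19% (4.001% to 6.60%). When every cell was thinned at random to 2000 UMIs, the shares were 58.2% and 57.5% for ZFAS1, 41.3% and 47.5% for SNHG8, 17.6% and 17.0% for EPB41L4A-AS1 and 13.5% and 14.6% for SNHG7, so the shares were set in part by depth. Free RNA of the suspension also gives UMIs, and its level was not estimated here. By the study's code the table was made from the filtered matrix, which holds no empty droplets. The culture also held no cell type that should lack these transcripts.

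**Figure D1:**
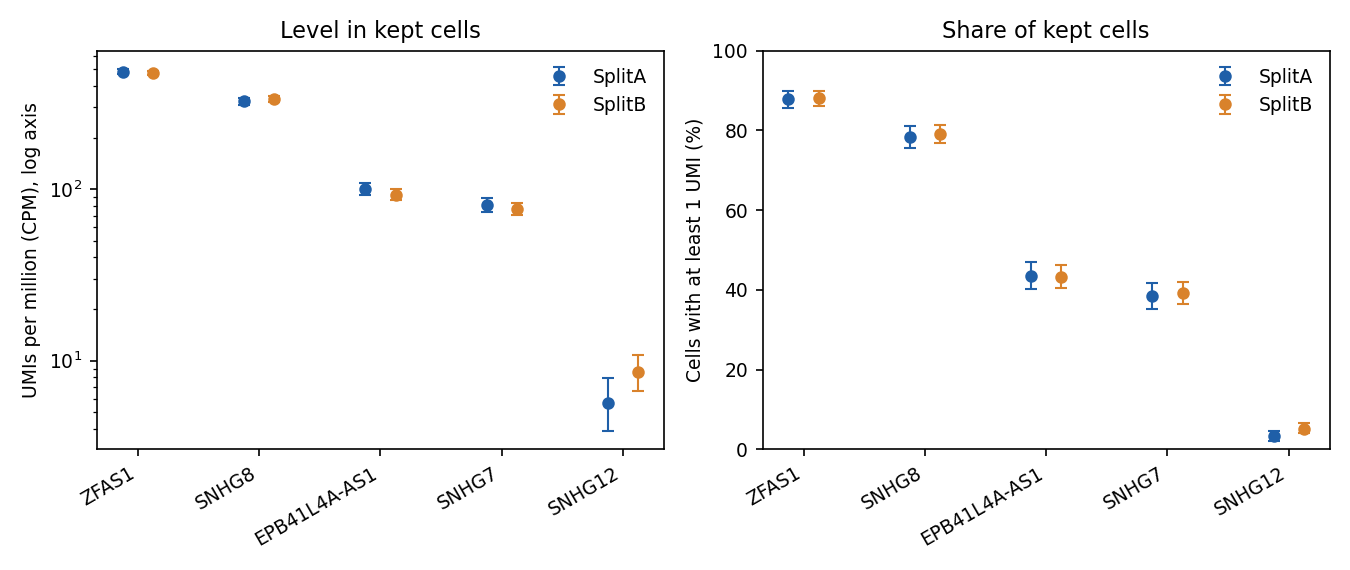
The left plot gives the level of each measured host gene in CPM (log axis) and the right plot the share of kept cells with at least 1 UMI (%), with 1 point per flask and exact Poisson (left) or binomial (right) 95% intervals. ZFAS1 stands highest at 486 and 477 CPM, SNHG12 lowest at 5.64 and 8.55 CPM, and both flasks lie close together for the 4 more abundant genes.

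Few UMIs of each transcript were captured per cell, which does not give the number of molecules that a cell held. ZFAS1 had a median of 3 UMIs per cell in both flasks and SNHG8 a median of 2, while EPB41L4A-AS1 and SNHG7 had a median of 0. ZFAS1 reached 17 UMIs in a cell of SplitA and 24 in a cell of SplitB, and SNHG8 reached 14 and 16. EPB41L4A-AS1 did not pass 6 UMIs in any kept cell and SNHG7 did not pass 5. All 4 transcripts were seen together in 141 SplitA cells (15.7%) and 197 SplitB cells (16.5%). None of the 4 was seen in 44 (4.89%) and 52 (4.35%).

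Spread between cells was compared with that of counting. The index used is the squared deviation from the count expected at a cell's depth, over the expected count, and is 1 for counting variance alone. SNHG8 had an index of 1.29 in SplitA and 1.33 in SplitB, and was the only 1 of the 4 at 1.2 or more in both flasks, as were 15.5% of all tested genes. ZFAS1 had 1.16 and 1.30, EPB41L4A-AS1 1.11 and 1.05, and SNHG7 1.05 and 1.07. In cells thinned to 2000 UMIs, where the same relative spread gives a smaller index, SNHG8 had 1.16 in both flasks and ZFAS1 1.16 and 1.12. Over all tested genes the median index at full depth was 1.07 in SplitA and 1.08 in SplitB, and over the 79 ribosomal protein genes it was 2.27 and 2.497.

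Both flasks held these transcripts at like levels. None of the 4 differed by 1.2-fold or more, against 3.32% of tested genes that were higher and 3.05% that were lower in SplitA by this limit. SplitA over SplitB was 1.02 for ZFAS1 (0.970 to 1.07), 0.966 for SNHG8 (0.911 to 1.03), 1.08 for EPB41L4A-AS1 (0.968 to 1.21) and 1.06 for SNHG7 (0.936 to 1.19). Each of these intervals includes 1. SNHG12 had a ratio of 0.659 with a wide interval (0.422 to 1.01).

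Some of these loci overlap coding genes on the other strand. Whether the counting used strand is not given in the sources used here, so reads of a pair may not be told apart. EPB41L4A, opposite EPB41L4A-AS1, had 1.37 and 1.24 CPM. ZNFX1, opposite ZFAS1, had 5.81 and 6.07 CPM. DIPK1B, opposite SNHG7, had 40.7 and 43.9 CPM, and PRSS12, opposite SNHG8, 53.6 and 58.6 CPM. TRNAU1AP, opposite SNHG12, had 26.3 and 25.2 CPM, more than SNHG12 itself.

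The levels of the host genes followed those of ribosomal protein genes from cell to cell. Values were log-normalized (UMIs per 10000 of a cell, natural log after adding 1), and Pearson's r was taken across the cells of each flask with the summed UMIs of 79 cytosolic ribosomal protein genes, which encode the proteins of both ribosomal subunits. The r of ZFAS1 was 0.499 in SplitA and 0.487 in SplitB, and that of SNHG8 0.389 and 0.401. EPB41L4A-AS1 had 0.188 and 0.193, and SNHG7 0.155 and 0.166. All 4 thus had an r of at least 0.1 in both flasks, against 10.8% of tested genes. SNHG12 had an r of 0.0499 and 0.0255. The median over all tested genes was 0.00457 and 0.00634. The order of r among the 5 was that of their UMI counts, and a gene with fewer UMIs per cell gives a lower r at the same relation.

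As a sum, the 5 host genes had an r of 0.632 in SplitA and 0.601 in SplitB. These values stood above those of 98.7% and 98.5% of tested genes, while ribosomal protein genes make up 1.43% of them. This sets a sum against single genes, and the sum holds more UMIs than each gene in it. Taken singly, ZFAS1 stood above 98.3% of tested genes in both flasks and SNHG8 above 97.8%. EPB41L4A-AS1 stood above 94.6% and 94.3%, SNHG7 above 92.8% and 92.9% and SNHG12 above 71.1% and 59.1%. The points of such an r share the library, the depth of the cell and its total. Cell quality moved with it: the sum of the host genes had an r of -0.538 and -0.509 with the mitochondrial share of the cell's UMIs, and the ribosomal protein sum one of -0.862 and -0.864. With log10 UMIs, the host gene sum had 0.361 and 0.340.

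Under each other way of taking r, the value of the sum stayed positive in both flasks but differed in size. In cells with a mitochondrial share under 15% (829 and 1091 cells), r was 0.334 and 0.297. With depth and mitochondrial share taken out as covariates it was 0.370 and 0.349. In cells thinned to 2000 UMIs it was 0.388 and 0.345, and Spearman's rho was 0.419 and 0.431. G1 cells alone gave 0.513 and 0.439, and a total without mitochondrial and ribosomal protein UMIs gave 0.689 and 0.662. ZFAS1 and SNHG8 kept an r of at least 0.1 in both flasks under all of these, and EPB41L4A-AS1 and SNHG7 under all but the thinning, where their r lay between 0.0741 and 0.0977.

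**Figure D2:**
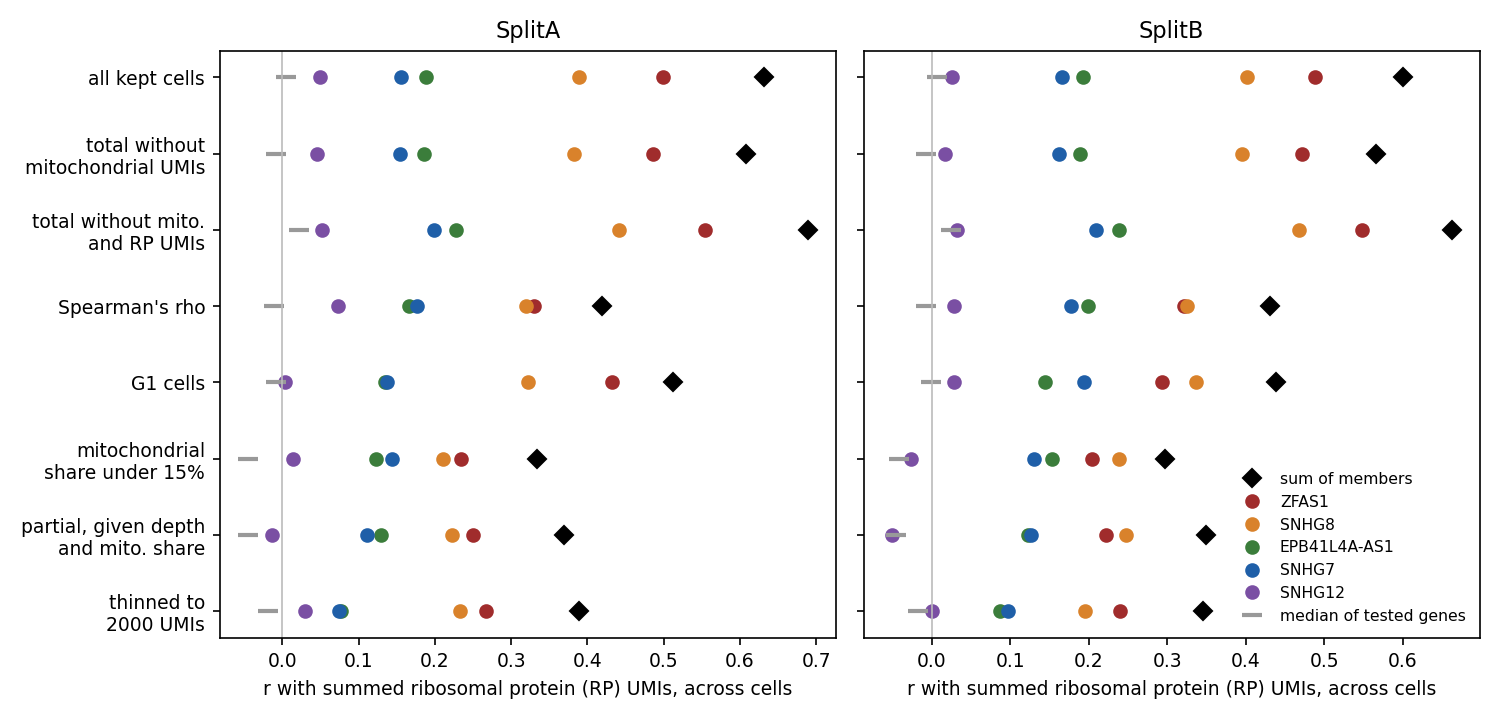
Each point is the r across the kept cells of 1 flask between a host gene (or their sum, black diamonds) and the summed ribosomal protein UMIs, with 1 line per way of taking r and the median of all tested genes as a grey bar. The sum lies between 0.297 and 0.689 throughout, and ZFAS1 and SNHG8 stand right of EPB41L4A-AS1 and SNHG7 in every line.

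Single ribosomal protein genes gave the same picture. ZFAS1 and SNHG8 each had an r of at least 0.1 in both flasks with all 79 of them, EPB41L4A-AS1 with 76, SNHG7 with 55 and SNHG12 with 0. The median r over the 79 genes was 0.387 and 0.392 for ZFAS1 and 0.313 and 0.319 for SNHG8. The highest r of ZFAS1 was with RPL13A in SplitA (0.466) and RPS27 in SplitB (0.460). That of SNHG8 was with RPS18 in both flasks (0.383 and 0.384), and that of SNHG7 with RPS2 (0.174 and 0.176). FAU, which encodes a ubiquitin-like protein fused to a ribosomal protein, had the lowest r with each of the 4 in SplitA. Between the host genes themselves r was smaller. It was highest for ZFAS1 with SNHG8, at 0.204 and 0.234, and SNHG8 with EPB41L4A-AS1 had 0.174 and 0.144. These genes have far fewer UMIs than ribosomal protein genes do.

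When all other tested genes were ordered by the lower of their 2 r values with the host gene sum, the first 20 were all ribosomal protein genes, as were 48 of the first 50. RPL41 was first at 0.575 and 0.559. Each of the first 20 had at least 3319 CPM in both flasks, and genes were not compared at like levels. Of the genes that are neither ribosomal protein genes nor among the 10 noncoding host genes, the 10 highest were TPT1, FTL, NACA, UQCRH, SERF2, ATP5F1E, SLC25A6, GUK1, FTH1 and OST4. TPT1, which encodes the translationally controlled tumour protein from a known TOP mRNA and holds SNORA31 and SNORA31B in the annotation, had 0.497 and 0.493. FTL and FTH1, the ferritin chains that store iron, had 0.464 and 0.470 and 0.342 and 0.333. NACA, which binds nascent chains at the ribosome, had 0.437 and 0.440. UQCRH, a subunit of respiratory complex III, had 0.483 and 0.428. Each of the 10 had at least 975 CPM in both flasks, a level at which counts per cell are higher than for most tested genes.

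The relation was next seen without correlation. The cells of each flask were put in 5 bins of like size by the ribosomal protein share of their UMIs that were not mitochondrial, which was 28.3% in the lowest and 49.0% in the highest bin of SplitA and 27.6% and 49.3% in SplitB. Host gene UMIs were counted per 10000 UMIs that were neither mitochondrial nor of ribosomal protein genes, so that the ribosomal protein UMIs were not part of the total. The host gene sum went from 11.3 (10.4 to 12.2) to 26.9 (25.7 to 28.3) in SplitA and from 10.7 (9.93 to 11.5) to 27.1 (26.0 to 28.3) in SplitB. In both flasks it was higher in each bin than in the bin before. Highest over lowest bin was 2.38 (2.17 to 2.62) and 2.54 (2.34 to 2.76).

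ZFAS1 had 5.54, 8.05, 8.64, 9.64 and 12.7 UMIs per 10000 in the bins of SplitA and 5.12, 7.61, 8.54, 9.55 and 12.8 in those of SplitB. SNHG8 had 3.40, 4.87, 5.53, 6.95 and 9.21 in SplitA and 3.38, 4.97, 6.42, 6.52 and 9.57 in SplitB. For both genes the values of the flasks lay close together along the bins. The ratio of highest to lowest bin was 2.29 (2.00 to 2.63) and 2.51 (2.22 to 2.83) for ZFAS1 and 2.71 (2.29 to 3.22) and 2.83 (2.45 to 3.29) for SNHG8. EPB41L4A-AS1 had 2.14 (1.60 to 2.91) and 2.52 (1.92 to 3.33), and SNHG7 2.14 (1.56 to 2.97) and 2.16 (1.61 to 2.92). All 4 were thus higher by at least 1.2-fold in both flasks, against 16.3% of tested genes, and the median ratio of tested genes was 0.954 and 0.933. SNHG12 had 3 to 12 UMIs per bin in SplitA and 10 to 16 in SplitB, with ratios of 2.02 (0.461 to 12.1) and 0.678 (0.300 to 1.504), and shows no direction at this depth.

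**Figure D3:**
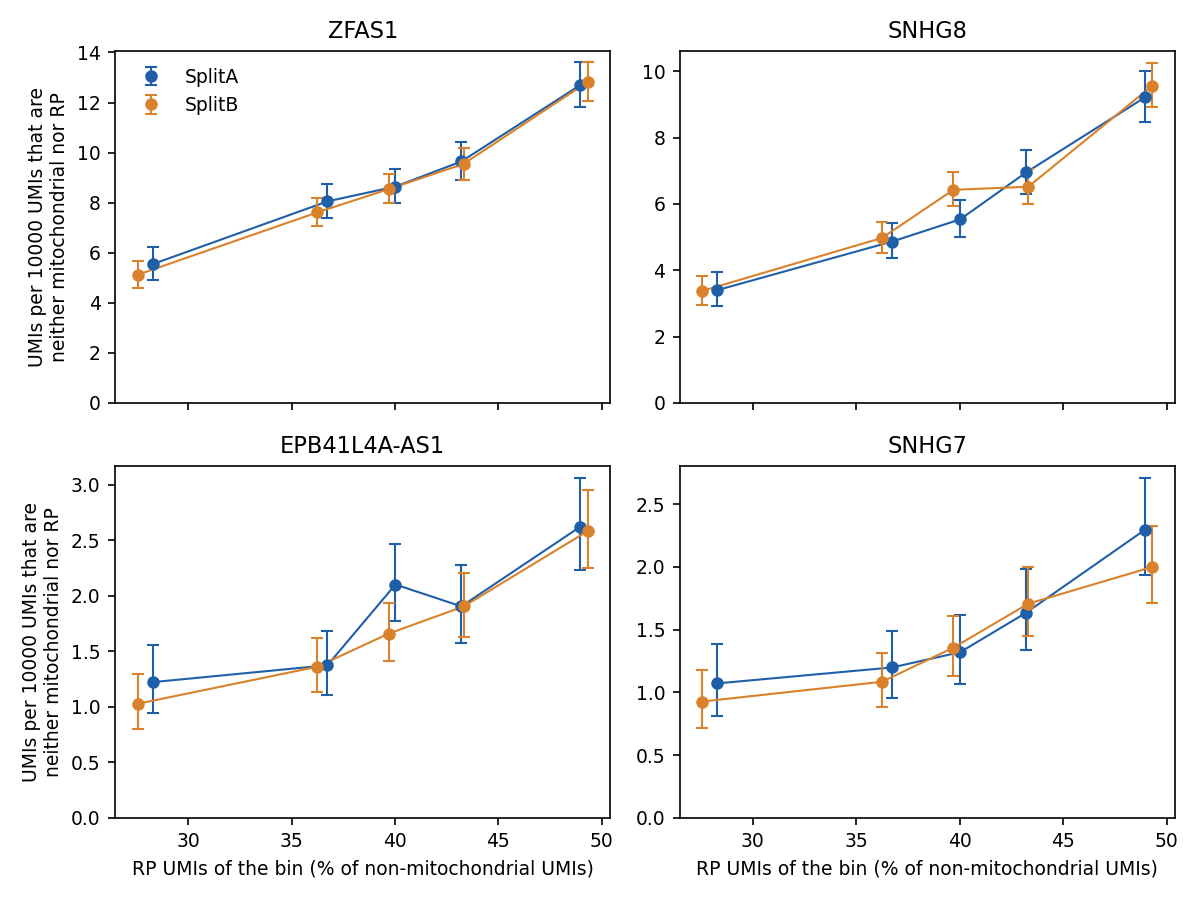
Cells of each flask are in 5 bins by ribosomal protein (RP) share of non-mitochondrial UMIs (%, x axis, value of the whole bin), and points are UMIs of a host gene per 10000 UMIs that are neither mitochondrial nor RP, with exact Poisson 95% intervals. ZFAS1 goes from 5.54 and 5.12 to 12.7 and 12.8, and for the 4 more abundant genes the lowest point of each flask is that of the lowest bin.

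The bins also differed in other ways. The lowest bin had a mitochondrial share of 12.5% and 13.4% and a median of 4292.5 and 4200 UMIs per cell, against 8.40% and 8.70% and 7004 and 7363 UMIs in the highest. The share of cells called G1 was 35.6% and 30.5% in the lowest and 69.8% and 63.6% in the highest bin. From the second to the highest bin the mitochondrial share stayed between 8.40% and 8.88%. The host gene sum was 1.73-fold (1.60 to 1.87) and 1.79-fold (1.68 to 1.92) higher in the highest than in the second bin. The median of this ratio over tested genes was 0.963 and 0.960. These bins also differed in phase and depth. The second had 44.4% and 41.8% of its cells called G1 and a median of 5877 and 6117 UMIs per cell. Within G1 cells alone, highest over lowest bin was 2.02 in both flasks for ZFAS1 and 2.51 and 2.74 for SNHG8. The part of depth in the ratio was not tested.

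The called phase of the cell cycle moved with the host genes as well. Phases were called within each flask from scores for 43 S and 54 G2M genes, none of them a host gene. SplitA had 435 G1, 246 S and 218 G2M cells, and SplitB 536, 386 and 273. The host gene sum was 1127 CPM in G1, 931 in S and 844 in G2M in SplitA, and 1086, 966 and 854 in SplitB. The order of the phases was the same in both flasks. G2M over G1 was 0.748 (0.702 to 0.798) and 0.786 (0.742 to 0.833), and S over G1 was 0.826 (0.775 to 0.880) and 0.890 (0.846 to 0.936).

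SNHG8 and EPB41L4A-AS1 had the lowest ratios of G2M to G1, with intervals that overlap. SNHG8 had 379.5 CPM in G1, 303 in S and 256 in G2M of SplitA and 382, 322 and 275 in SplitB, with G2M over G1 at 0.674 (0.600 to 0.757) and 0.722 (0.652 to 0.798). EPB41L4A-AS1 had a G2M over G1 of 0.717 (0.582 to 0.879) and 0.731 (0.598 to 0.889). SNHG7 had 0.803 (0.640 to 1.00) and 0.829 (0.672 to 1.02), intervals whose upper ends lie at about 1. SNHG8, EPB41L4A-AS1 and SNHG7 were thus lower in G2M by at least 1.2-fold in both flasks, as were 11.4% of tested genes, and 0 of the 4 were higher, against 28%. ZFAS1 had 0.799 (0.728 to 0.875) and 0.840 (0.773 to 0.912), the second just short of that limit. SNHG12 had 7 and 11 UMIs in G2M cells, too few for a direction.

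In S cells the 4 host genes lay under their G1 level in both flasks, and above their G2M level in both flasks for ZFAS1, SNHG8 and EPB41L4A-AS1. S over G1 was 0.876 (0.799 to 0.959) and 0.909 (0.844 to 0.979) for ZFAS1 and 0.798 (0.714 to 0.892) and 0.844 (0.773 to 0.921) for SNHG8. SNHG7 had 0.761 (0.601 to 0.958) and 0.862 (0.714 to 1.04), and EPB41L4A-AS1 0.728 (0.589 to 0.895) and 0.9497 (0.804 to 1.12). The SplitB intervals of SNHG7 and EPB41L4A-AS1 thus included 1. Intervals of the S and G2M levels overlapped for ZFAS1 and EPB41L4A-AS1 in both flasks and for SNHG8 in SplitA. EPB41L4A-AS1 had 85.8 CPM in S and 84.5 in G2M of SplitA. None was lower by at least 1.2-fold in both flasks, against 7.96% of tested genes, though SNHG7, SNHG8 and EPB41L4A-AS1 passed this limit in SplitA alone. None was higher, against 19.7% of tested genes.

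**Figure D4:**
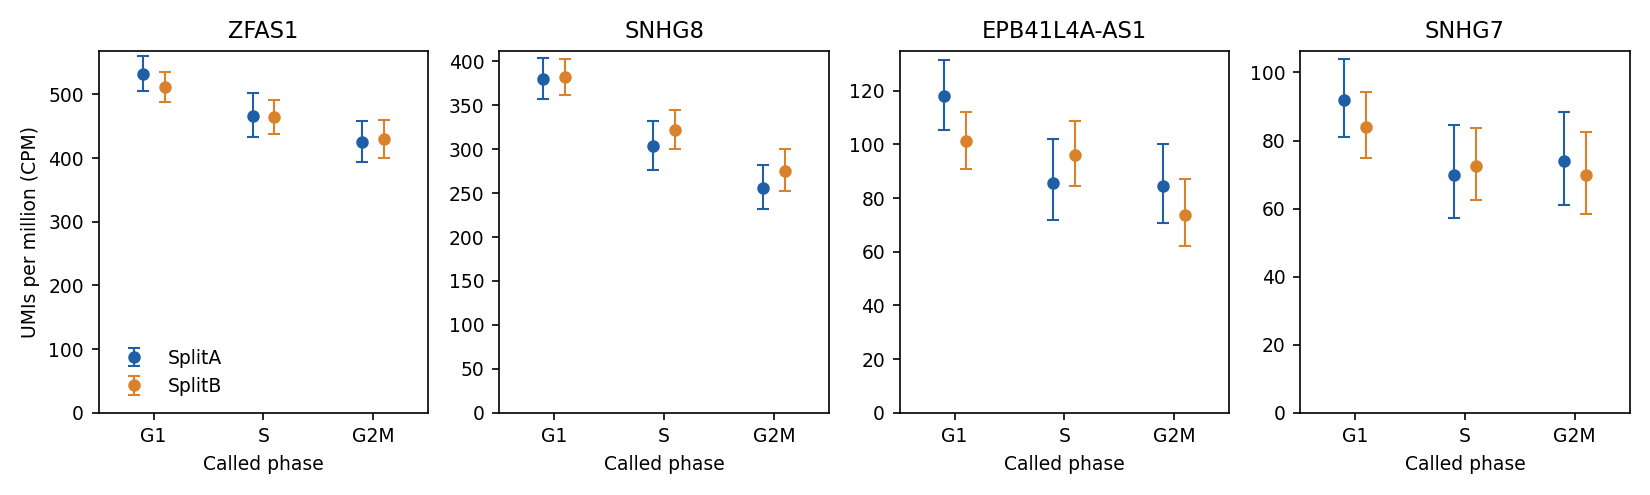
Points are the level (CPM) of each host gene in cells called G1, S and G2M, 1 colour per flask, with exact Poisson 95% intervals. SNHG8 goes from 379.5 and 382 CPM in G1 to 256 and 275 CPM in G2M, and for all 4 genes the G1 points are the highest in both flasks.

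Ribosomal protein genes had the same order of phases with a smaller difference. Their sum in G2M over G1 was 0.903 in SplitA and 0.891 in SplitB, and 7 of the 79 were lower by at least 1.2-fold in both flasks. Counted per ribosomal protein UMI instead of per UMI, G2M over G1 was 0.747 and 0.809 for SNHG8, 0.794 and 0.819 for EPB41L4A-AS1, 0.889 and 0.930 for SNHG7 and 0.884 and 0.943 for ZFAS1. SNHG8 and EPB41L4A-AS1 thus stayed past the limit on this scale and SNHG7 did not. The mitochondrial share was 8.83% in G1 and 9.26% in G2M of SplitA and 9.12% and 9.86% in SplitB. In cells with a mitochondrial share under 15%, G2M over G1 was 0.684 and 0.721 for SNHG8 and 0.732 and 0.759 for EPB41L4A-AS1, which stayed past the limit. It was 0.834 and 0.797 for SNHG7, which did not pass it in SplitA, so that 3 became 2. Of 15 alternatives on cells, totals and phases, 7 ended the call of SNHG7 and 0 that of SNHG8 or EPB41L4A-AS1.

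Cells left out for a low number of genes held less of the host transcripts. There were 273 such cells, with at least 300 but under 1000 genes, in SplitA and 387 in SplitB. ZFAS1 had 29 UMIs in them in SplitA, 70.8 CPM (47.4 to 102) against 486 CPM in kept cells, and 61 in SplitB, 110 CPM (83.9 to 141) against 477 CPM. The ratio was 0.146 (0.0974 to 0.210) and 0.230 (0.176 to 0.296). SNHG8 had a ratio of 0.352 (0.258 to 0.470) and 0.293 (0.220 to 0.383), EPB41L4A-AS1 0.316 (0.167 to 0.544) and 0.271 (0.147 to 0.457), and SNHG7 0.510 (0.295 to 0.826) and 0.537 (0.338 to 0.814). All 4 were lower by at least 1.2-fold in both flasks, as were 33.5% of tested genes, and 0 were higher, against 31.2%.

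These cells differed in quality: their median was 1488 and 1410 UMIs, and mitochondrial genes took 31.5% and 34.4% of their UMIs against 9.23% and 9.43% in kept cells. Without mitochondrial UMIs in the total, the ratio was 0.193 and 0.318 for ZFAS1, 0.466 and 0.405 for SNHG8, 0.418 and 0.374 for EPB41L4A-AS1 and 0.676 and 0.742 for SNHG7. All 4 again passed the limit, as did 20.9% of tested genes with 47.3% past it in the other direction, and the intervals of SNHG7 (0.390 to 1.09 and 0.467 to 1.12) included 1. The ribosomal protein sum was 0.334 and 0.309 of its level in kept cells on the first scale. MALAT1 and NEAT1, long noncoding RNAs that stay in the nucleus, went the other way, at 2.01 and 2.04 for MALAT1 and 2.36 and 2.11 for NEAT1. SNHG12 had 3 and 4 UMIs in the left-out cells, with ratios of 1.30 (0.255 to 4.14) and 0.841 (0.223 to 2.25).

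**Figure D5:**
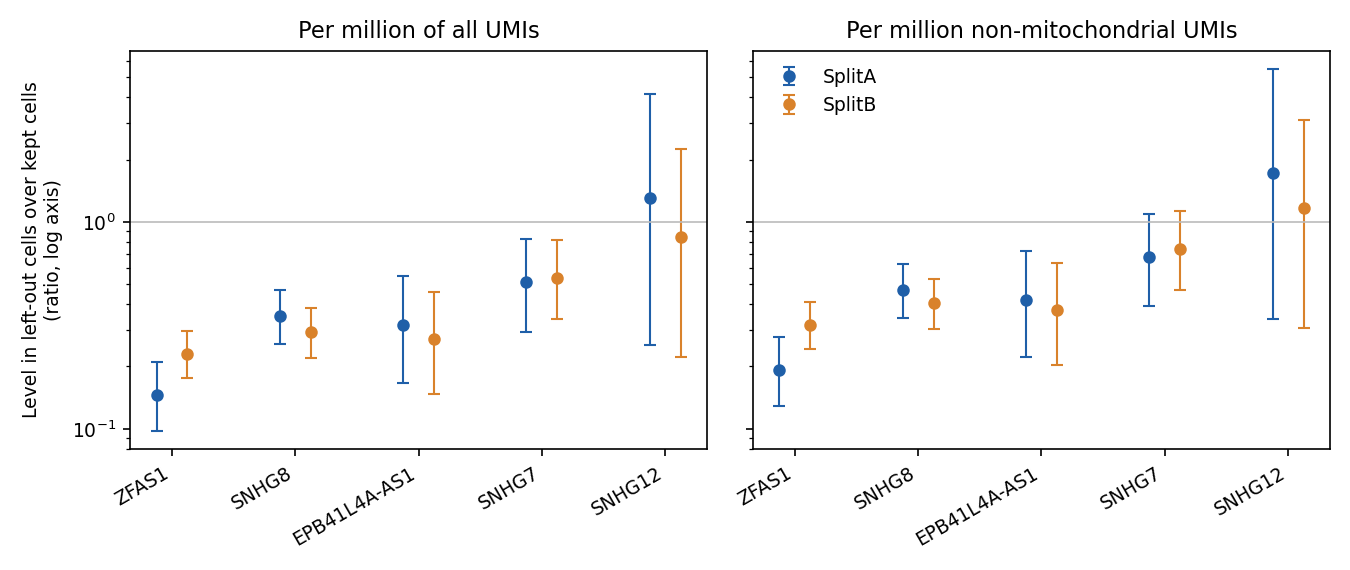
Points are the level in left-out cells (at least 300 but under 1000 genes) over that in kept cells (log axis) for each host gene and flask, with exact 95% intervals, relative to all UMIs (left) and to non-mitochondrial UMIs (right). The 4 more abundant genes lie under 1 in both plots, lowest for ZFAS1 at 0.146 and 0.230 on the left, while the intervals of SNHG12 and, on the right, of SNHG7 include 1.

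Other noncoding host genes gave a background for these patterns. Of 18 further host genes listed, 11 were matched to a row and 8 had at least 0.1 UMI per cell. SNHG32 was the highest at 281 and 273 CPM, followed by SNHG25 at 97.0 and 92.6, SNHG15 at 74.8 and 73.3, SNHG19 at 55.4 and 53.4 and SNHG30 at 40.7 and 42.9. Across the ribosomal protein bins 7 of the 8 were higher by at least 1.2-fold in both flasks, against 16.3% of tested genes. SNHG19 had 3.14 and 2.53 and SNHG25 2.23 and 2.54. An r of at least 0.1 was seen for 3 of the 8 (SNHG19, SNHG25 and SNHG32, the last at 0.276 and 0.278), against 10.8% of tested genes. It was seen for 4 of 4 above, but the levels differ and fewer UMIs give a lower r. SNHG9, SNHG10, SNHG15, SNHG21 and SNHG30, which did not pass, had 24.4 to 74.8 CPM, and SNHG15 had an r of 0.0892 and 0.112. SNHG10 and SNHG21 hold no snoRNA gene in the annotation used here. SNHG19 was the only 1 of the 8 that was lower in G2M by at least 1.2-fold in both flasks, as were 11.4% of tested genes. It was at 0.678 and 0.680 of G1, and SNHG32 had 0.834 and 0.935. The r of SNHG19 with the ribosomal protein genes was 0.120 and 0.139.

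The RNAs that encode proteins of the snoRNA particles did not move as 1 group with the noncoding host genes. Of the 8 core genes of the snoRNA particles, NHP2 (644 and 641 CPM), NOP10 (503 and 515) and SNU13 (224 and 242) had an r of at least 0.1 with ribosomal protein genes in both flasks. An r this high was seen for 10.8% of all tested genes. NOP10, a small subunit of H/ACA particles, had 0.344 and 0.456. NOP56 and NOP58, which assemble C/D particles, and DKC1, the pseudouridine synthase of H/ACA particles, had an r of -0.1 or less, as did 10.1% of all tested genes. NOP56 had -0.169 and -0.171. In the annotation these 3 are snoRNA hosts too, with 5 snoRNAs in NOP56, 4 in NOP58 and 2 in DKC1. G2M over G1 of these 3 was 1.68 and 1.91 for NOP56, 1.76 and 2.06 for DKC1 and 1.91 and 1.33 for NOP58, whose interval in SplitB (0.984 to 1.78) includes 1. They were thus 3 of 8 that were higher by at least 1.2-fold in both flasks, as were 28% of all tested genes. The left-out cells had a high mitochondrial share. In them NOP56 was at 2.07 and 1.85 times its level in kept cells, NOP58 at 3.49 and 2.41 and DKC1 at 2.44 and 2.14. By the same limit 31.2% of tested genes were higher there. The part of cell quality in their r was not tested. FBL, the methyltransferase of C/D particles, had an r of 0.00269 and 0.131, and GAR1 0.0153 and -0.0147. NOP56, NOP58, DKC1 and GAR1 were the 4 least abundant of the 8, at 37.1 to 73.1 CPM.

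Translation factors and related genes resembled the host genes more. Of 15 listed, 14 had an r of at least 0.1 in both flasks, against 10.8% of tested genes. All 15 were higher by at least 1.2-fold across the bins, against 16.3%, and 10 were lower in G2M, against 11.4%. Many of the 15 are abundant, with EEF1A1 at 6062 and 5940 CPM, and fewer UMIs give a lower r. EEF1G, which did not pass in r, had 22.6 and 22.3 CPM. EIF3E, a subunit of initiation factor 3, had a G2M over G1 of 0.645 and 0.589, and EEF1A1, the factor that brings aminoacyl-tRNA to the ribosome, 0.796 and 0.800. Their median G2M over G1 was 0.781 and 0.797, beside 0.758 and 0.780 for the 4 host genes and 1.08 and 1.09 for all tested genes. Of 10 factors of nonsense-mediated decay, 7 were tested. An r past 0.1 was seen for 0 of them in either direction, against 10.8% and 10.1% of tested genes. In G2M 2 of the 7 were higher by at least 1.2-fold in both flasks, against 28% of tested genes. UPF3B was 1 of these, at 1.43 and 1.44. UPF1, the helicase at the centre of this pathway, had only 17.1 and 16.4 CPM.

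Nucleolar genes were mixed. Of 16 listed, 11 were tested. POLR1D, a subunit shared by RNA polymerases I and III, had an r of at least 0.1 in both flasks (0.262 and 0.278). It was 1 of the 11, against 10.8% of all tested genes. NCL (nucleolin), NOLC1, BOP1 and DDX21, which act in ribosome assembly, had an r of -0.1 or less. They were 4 of the 11, against 10.1% of all tested genes. POLR1D also had a G2M over G1 of 0.685 and 0.569, while NPM1 (nucleophosmin) had 0.668 and 0.698 with an r of -0.0899 and -0.0861. These 2 of the 11 were lower in G2M by at least 1.2-fold in both flasks, against 11.4% of tested genes. UBTF (1.84 and 2.00), LYAR (1.45 and 1.45) and DDX21 (1.31 and 1.45) were higher by that limit. They were 3 of the 11, against 28% of tested genes. Coding genes whose locus holds a snoRNA on the same strand were looked at last, with no check that the snoRNA is intronic. Of 100 tested coding host genes other than ribosomal protein genes, 11 had an r of at least 0.1 in both flasks and 25 one of -0.1 or less, against 10.8% and 10.1% of all tested genes. NCL, NOP56, NOP58 and DKC1, each with an r of -0.1 or less, are among these 100. TPT1, EEF1B2, RACK1 and EEF2, counted above with the translation factors, are among them too. Their r was 0.764 and 0.767 for TPT1, 0.526 and 0.571 for EEF1B2, 0.416 and 0.493 for RACK1 and 0.227 and 0.257 for EEF2. Of the 79 ribosomal protein genes, 28 also hold a snoRNA in the annotation.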

How the data were processed

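The values are UMI counts per Ensembl gene and cell, which the authors made with STAR 2.7 and Cell Ranger 4.0.0 on GRCh38 and deposited without normalization as 1 table of 2879 cells. Which annotation release was counted is not given in the sources used here. Flasks, the limit of 1000 genes (counted here over gene rows) and the log-normalization (scale factor of 10000) followed the study's code. So did the cycle gene list and the scoring function, with Seurat 5.3.0 in R 4.3.3 (43 S and 54 G2M genes). Phases were scored here within each flask over the kept cells, while the study's code scored both flasks and the multiplets together. Its limit on the mitochondrial share was not set and was an alternative. Its limits on UMIs (500) and on complexity (log10 genes over log10 UMIs, 0.75) were not set either, and would remove 0 kept cells. Other values came from Python 3.11.15, numpy 2.4.6, scipy 1.17.1 and pandas 2.3.3, doublet scores from Scrublet in scanpy 1.11.5 and plots from matplotlib 3.10.9. With 1 library and 2 flasks of the same treatment no count test was run. Intervals are exact Poisson for levels, exact binomial for shares of cells and conditional binomial for ratios. Limits were a fold of 1.2, an r of 0.1 and a variance index of 1.2. The ratio of levels, the r and the variance index were tried on simulated counts with counting error at the depths of SplitB cells. The phase calls, the binning of cells and the effect of cell quality on r were not simulated. Named were the 10 host genes, the 10 genes most like their sum, the snoRNA particle genes and the 5 highest further host genes, with other lists by counts and examples. Host genes and lists were chosen with earlier results of these data known. Alternatives, 142 planned and 3 added after the values were seen, concerned cells, depth, totals, phases, the r, bins and limits. Some genes of these lists are not reported here.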

Additional observations from a re-analysis of the deposited data

Results flagged for a closer look

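The multiplets, cells that the hashtag rule put in neither flask, entered no comparison above. In the 73 of them with at least 1000 genes the measured host genes held 598 UMIs, 1035 CPM (954 to 1121), with a median of 7636 UMIs per cell. This value is given because it is a signal in cells that the report did not use.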

How the results depend on the processing

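The number of host genes past the limit did not change between flasks (0), across the ribosomal protein bins (4, also within G1 cells) or in left-out cells (4) under any alternative run. With 4 genes, 1 gene is enough to move a count.

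The summed level of 995 CPM was 949 with at least 300 genes per cell, 978 with at least 2000, 988 with a hashtag ratio of 10, 1021 with a mitochondrial share under 15% over 13 genes, 989 without the highest 5% of UMIs, 968 in thinned cells, 1098 per non-mitochondrial UMI and 1842 with ribosomal protein UMIs also left out of the total.

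For S against G1, 0 genes became 3 with 300 genes per cell, 1 with 2000 genes, 1 with multiplets kept, 1 without Scrublet doublets, 2 without the highest 5%, 2 in thinned cells, 2 with phases of thinned cells, 1 with the updated cycle list, 1 without mitochondrial and ribosomal protein UMIs and 2 at a fold of 1.1. Leaving out 1 flask gave 0 to 3, 3 without SplitB. For G2M against G1, 3 became 0 at a fold of 1.5, 2 (without SNHG7) with a mitochondrial share under 15% over 13 genes, without Scrublet doublets, in thinned cells, with phases of thinned cells, with the updated cycle list, per non-mitochondrial UMI and per ribosomal protein UMI, and 4 (with ZFAS1) with a hashtag limit of 100, a mitochondrial share under 15% over 9 genes, multiplets kept, the total without mitochondrial and ribosomal protein UMIs and a fold of 1.1, and leaving out 1 flask gave 3 to 4, the fourth being ZFAS1 without SplitB.

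The 4 genes with an r past the limit were 2 in thinned cells and 2 at a limit of 0.2. The mean r of the sum, 0.616, was 0.748 with 300 genes per cell, 0.358 with 2000, 0.315 with a mitochondrial share under 15% over 13 genes, 0.367 in thinned cells, 0.587 and 0.676 with the smaller totals, 0.425 as Spearman's rho, 0.359 as a partial r and 0.476 in G1 cells. Without 1 flask it was 0.601 to 0.632.

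The 1 gene past the variance limit became 0 with 300 genes per cell, 2 with 2000 genes, 0 in thinned cells, 2 at a limit of 1.1 and 0 at 1.5, and 1 to 2 without a flask, the second being ZFAS1 without SplitA. The causes were not tested. No paired analysis was possible because there was 1 count library and no test.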
